A study of Homo sapiens with 4 samples.

Results

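The DNA damage response was followed in the RNA of NK-92 cells through 9 genes chosen by symbol: the damage kinases ATM, ATR and PRKDC, the checkpoint kinase CHEK2, the p53 inhibitor MDM2, the phosphatase PPM1D, the cell cycle inhibitor CDKN1A, and the stress genes GADD45A and GADD45B. All 9 were found among the 20323 genes of the table, and 8 of the 9 had enough reads to be tested, with CDKN1A left out. NK-92 is an interleukin-2 dependent human natural killer lymphoma line. NK scramble cells carried a lentiviral scrambled hairpin, and NK shADAR1 cells carried a lentiviral hairpin against ADAR, the gene of the RNA-editing enzyme ADAR1. Both groups were grown with interleukin-2, and no DNA-damaging agent is named in the labels. Each group had 2 libraries, numbered 1 and 2 in the labels and read here as replicates. The same endings could also name hairpins, and the study's text names cells of the second hairpin for sequencing.

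DNA breaks and stalled replication forks activate ATM, ATR and the DNA-dependent protein kinase, whose catalytic subunit is encoded by PRKDC. These kinases act on p53 directly and through checkpoint kinases such as CHEK2. Stabilized p53 induces CDKN1A, GADD45A, MDM2 and PPM1D, and the products of the last pair feed back to restrain p53 and its kinases. GADD45B is induced chiefly by stress and cytokine signals through NF-kappa B, and both GADD45 proteins can act on p38 and JNK signaling.

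The promoters of 4 of these genes are shown as examples. Each run covers 250 bases before and 50 bases from a RefSeq transcript start in GRCh38.p14, 5′ to 3′ on the strand of the gene. Capitals mark every match to the motifs listed after the sequences. The MDM2 window is its internal promoter (chr12:68808767-68809066, plus strand), the one known to respond to p53. The CDKN1A window is chr6:36678464-36678763, the GADD45B window chr19:2475877-2476176 and the PPM1D window chr17:60599943-60600242, all on the plus strand.
MDM2: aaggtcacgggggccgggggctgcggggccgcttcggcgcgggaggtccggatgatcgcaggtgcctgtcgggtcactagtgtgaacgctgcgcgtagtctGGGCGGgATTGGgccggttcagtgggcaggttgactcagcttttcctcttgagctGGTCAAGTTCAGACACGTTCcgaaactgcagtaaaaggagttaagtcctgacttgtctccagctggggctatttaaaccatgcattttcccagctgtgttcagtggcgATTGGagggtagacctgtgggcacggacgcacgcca
CDKN1A: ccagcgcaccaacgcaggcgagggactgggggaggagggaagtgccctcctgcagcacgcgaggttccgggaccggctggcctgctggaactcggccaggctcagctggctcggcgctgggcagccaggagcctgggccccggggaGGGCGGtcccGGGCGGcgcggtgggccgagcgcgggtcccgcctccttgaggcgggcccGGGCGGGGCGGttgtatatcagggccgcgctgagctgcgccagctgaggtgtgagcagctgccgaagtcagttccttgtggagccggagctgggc
GADD45B: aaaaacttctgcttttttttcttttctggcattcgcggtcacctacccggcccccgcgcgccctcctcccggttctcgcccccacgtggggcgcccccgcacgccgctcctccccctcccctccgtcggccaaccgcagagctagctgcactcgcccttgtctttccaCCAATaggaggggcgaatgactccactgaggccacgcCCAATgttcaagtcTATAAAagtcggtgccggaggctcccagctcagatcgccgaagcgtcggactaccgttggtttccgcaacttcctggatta
PPM1D: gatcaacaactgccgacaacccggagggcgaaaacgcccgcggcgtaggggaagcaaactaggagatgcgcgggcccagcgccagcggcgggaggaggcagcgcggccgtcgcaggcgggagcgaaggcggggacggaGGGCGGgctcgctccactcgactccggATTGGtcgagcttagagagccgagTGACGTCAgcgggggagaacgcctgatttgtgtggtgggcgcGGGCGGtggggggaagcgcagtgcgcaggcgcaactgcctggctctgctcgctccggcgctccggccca

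Both strands of the windows were searched for the CCAAT box (CCAAT), the TATA box (TATAAA), the GC box (GGGCGG), the cyclic AMP response element (TGACGTCA), the NF-kappa B consensus, and a directly adjacent pair of p53 half-sites with at most 1 mismatch in each half-site, none in its fixed C and G. The MDM2 window held a p53 pair from base -94 to base -75 relative to the transcript start, which 0.157% of all 35116 windows in the table also held. It also held 1 GC box and 2 CCAAT matches. The PPM1D window held 2 GC boxes, 1 CCAAT match and a cyclic AMP response element from base -61 to base -54, the last being a motif present in 1.85% of all windows. The GADD45B window held a TATA match from base -31 to base -26, found in 11.5% of windows, and 2 CCAAT matches, a motif in 34.6% of windows. The CDKN1A window held 4 GC boxes, of which the last pair overlaps by 1 base, and 45.0% of windows held at least 1. The exact NF-kappa B sequence, in 0.191% of windows, was in none of the 4, and other forms of that site were not searched. The p53 sites for which CDKN1A is known lie farther upstream than this window reaches. A match here is a description of letters and not of binding. Windows of 7 of the 9 genes were searched. GADD45A has no entry, and PRKDC was left out of the search.

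The 4 libraries held between 37881704 and 39960491 estimated counts each. ADAR, the targeted gene, measured 655 and 682 CPM (counts scaled to library size by TMM) in the control libraries, against 575 and 482 CPM after knockdown. Both knockdown libraries were below both scramble libraries, by -0.34 ± 0.20 on the log2 scale (SE, n = 2 per group), with an edgeR quasi-likelihood adjusted p of 1.00. All 15 NK cell markers were detected and summed to 6679 to 7805 CPM. CD8A and CD8B were at 0 in all libraries, 6 of 11 T cell markers were under 1 CPM in every library, and T cell markers summed to 910 to 1286 CPM, B cell markers to 159 to 227 CPM (3 of 6 under 1 CPM, MS4A1 at 0) and monocyte markers to 2.18 to 3.64 CPM (5 of 7 under 1 CPM, FCN1 and S100A8 at 0). Of 11810 genes tested, 0.0% met both thresholds (a fold change of 1.5 or more and an adjusted p under 0.05) in the edgeR test. No member passed, and DESeq2 called 0 genes as well. The study, with DESeq2 at the same thresholds, did report differentially expressed genes, and the reason for this difference was not tested. At an unadjusted p under 0.05, 293 genes passed with edgeR and 289 with DESeq2. Differences are therefore given as values with 95% intervals.

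Compared per transcript length, PRKDC had the highest level of the 9 genes, at a mean of 53.4 FPKM over the 4 libraries. GADD45B followed at 27.7 FPKM and CHEK2 at 17.7 FPKM. MDM2 at 9.30, PPM1D at 8.50, ATM at 8.49 and ATR at 5.54 FPKM formed a middle group whose library ranges overlapped from each gene to the next. GADD45A was at 2.48 FPKM, its highest library (4.191 FPKM) overlapping the lowest of ATR (3.342 FPKM), and CDKN1A at 0.059 FPKM. PRKDC was 5.04 to 8.34 times the FPKM of ATM and GADD45B was 7.34 to 15.5 times that of GADD45A within single libraries, so both orders held in all 4. ATM was 1.34 to 1.79 times the FPKM of ATR.

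**Figure D1:**
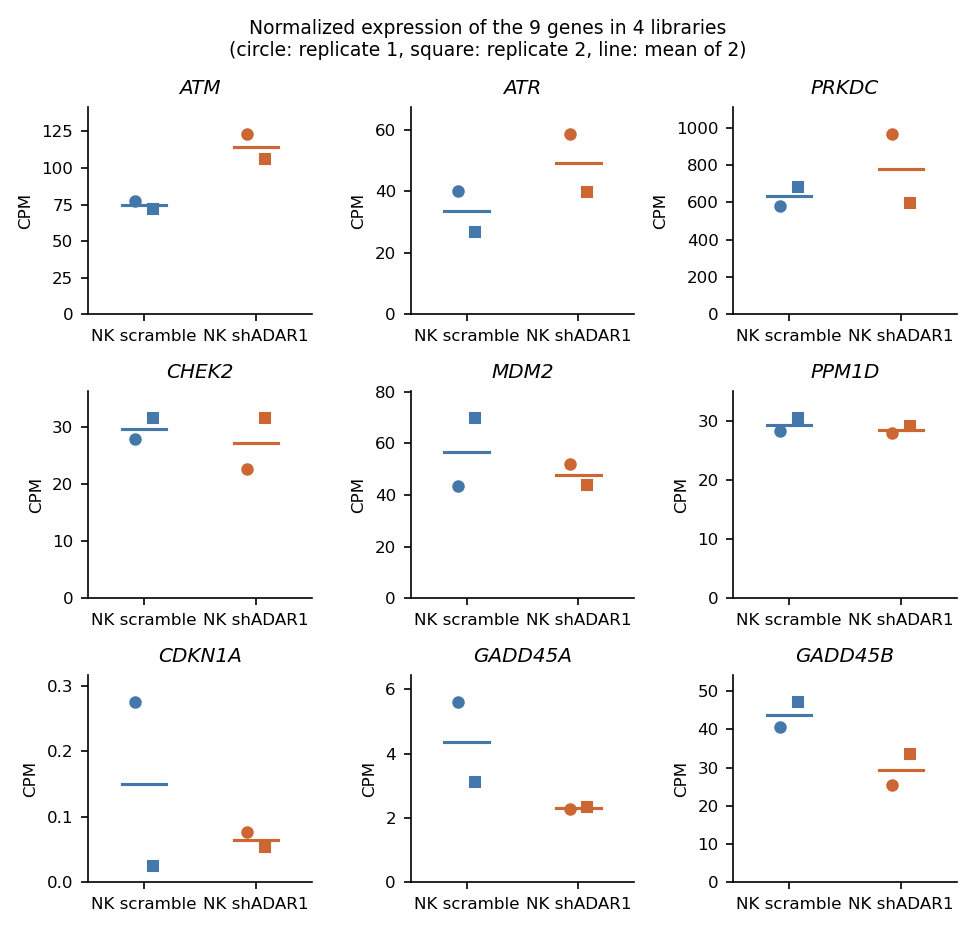
CPM of each of the 9 genes in each library, with a point per library and a line at the mean of each group (n = 2). The ATM points of NK shADAR1 lie above both NK scramble points, the GADD45A and GADD45B points lie below, and the groups of the other 6 genes overlap. Of all tested genes, 13.3% were higher and 12.6% were lower without overlap.

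The 3 damage kinases had higher mean CPM in NK shADAR1 cells, and for ATM the groups did not overlap. ATM, the kinase that responds to double-strand breaks (chromosome 11, 108222484 to 108369102, plus strand, GRCh38), measured 77.1 and 71.9 CPM in the scramble libraries, against 123 and 106 CPM after knockdown. Both knockdown libraries were above both controls. In bulk RNA, fewer or more cells in a state and less or more RNA per cell cannot be told apart. The means were 74.5 ± 3.72 and 115 ± 12.1 CPM (SD, n = 2 each), a 1.54-fold difference. The fitted log2 difference was 0.62 ± 0.20 (SE), with an interval of 0.18 to 1.06, an unadjusted p of 0.0102 and an adjusted p of 1.00 (edgeR). Over all genes, 1.7% were higher at an unadjusted p under 0.05 and 13.3% were higher without overlap between groups. ATM shares exonic sequence with NPAT and C11orf65 on the other strand, and since the strand setting of the counting is not stated, reads of those genes cannot be told apart from its own.

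ATR, the kinase of replication stress (chromosome 3, 142449235 to 142578826, minus strand), measured 40.2 and 26.6 CPM in the scramble libraries, against 58.6 and 39.8 CPM after knockdown. The lower knockdown library lay just under the higher control, so the groups overlapped. NK shADAR1 differed from NK scramble by 0.56 ± 0.26 log2 units (SE), with an interval of -0.025 to 1.14 and an unadjusted p of 0.0589. It was 0.25 without NK shADAR1 replicate 1, 0.29 without NK scramble replicate 2 and 0.88 without NK scramble replicate 1. The exons of ATR overlap a processed pseudogene on the other strand, whose reads cannot be told apart from those of ATR. PRKDC (chromosome 8, 47773108 to 47960183, minus strand) measured 580 and 683 CPM in the scramble libraries, against 965 and 596 CPM after knockdown. NK shADAR1 replicate 1 was the highest of the 4 and replicate 2 lay within the range of the controls. The log2 difference was 0.31 ± 0.26 (SE), with an interval of -0.26 to 0.87, and it was -0.083 without NK shADAR1 replicate 1.

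These 3 kinases have long transcripts. The effective length implied by count and FPKM averaged 13261 bases for PRKDC, 11145 for ATM and 7575 for ATR, and 0.288%, 0.914% and 3.95% of tested genes were longer. In NK shADAR1 replicate 1 the median log2 CPM relative to the NK scramble mean went from -0.095 in the shortest 20% of genes to 0.148 in the longest. In replicate 2 it went from 0.080 to -0.012. In that library ATM stood at 0.51, ATR at 0.28 and PRKDC at -0.080 relative to the scramble mean, against 0.73, 0.84 and 0.62 in replicate 1. With a length term in the model the log2 differences were 0.48 for ATM, 0.44 for ATR and 0.12 for PRKDC. The part of transcript length in these differences was not tested further.

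**Figure D2:**
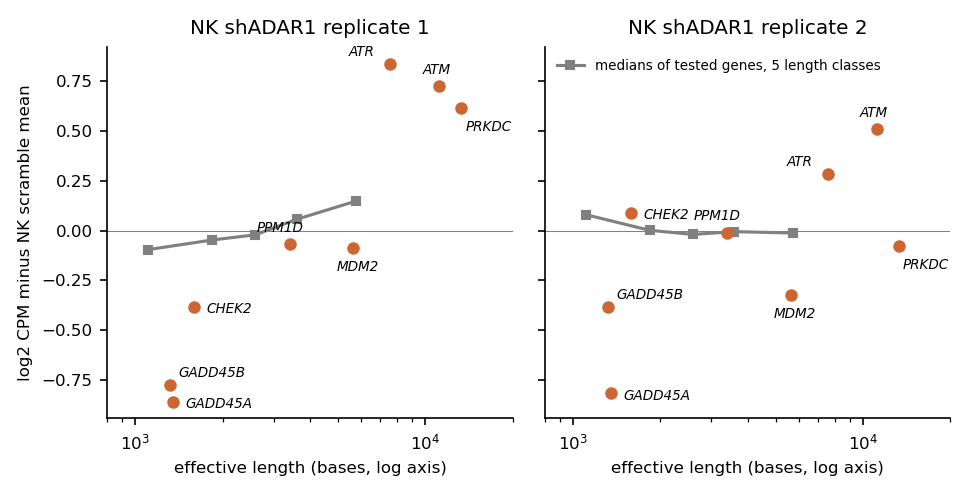
log2 CPM relative to the NK scramble mean against effective length (bases, log axis) for the 8 tested genes (orange) in each NK shADAR1 library, with medians of the tested genes in 5 equal classes of length in grey. ATM, ATR and PRKDC lie above the median of the longest class in replicate 1, and ATM and ATR but not PRKDC lie above it in replicate 2.

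CHEK2, the checkpoint kinase downstream of ATM (chromosome 22, 28687743 to 28742422, minus strand), measured 27.9 and 31.5 CPM in the scramble libraries, against 22.7 and 31.5 CPM after knockdown. One knockdown library lay below the controls and the other was level with the higher control. NK shADAR1 differed from NK scramble by -0.13 ± 0.23 log2 units (SE), with an interval of -0.63 to 0.37, and by 0.088 without NK shADAR1 replicate 1. Its estimated counts were not whole numbers and 4 named pseudogene copies exist in the annotation, so its level is uncertain. Its exons also overlap HSCB on the other strand, whose reads cannot be told apart from its own.

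MDM2, the ubiquitin ligase that degrades p53 (chromosome 12, 68808176 to 68850686, plus strand), measured 43.4 and 69.8 CPM in the scramble libraries, against 51.9 and 44.0 CPM after knockdown. Both knockdown libraries lay between the 2 controls. The log2 difference was -0.24 ± 0.25 (SE), with an interval of -0.79 to 0.31, and it was 0.14 without NK scramble replicate 2. On the FPKM scale the order of the groups was less clear, with 6.871 and 11.64 FPKM in NK scramble and 10.539 and 8.142 FPKM in NK shADAR1, and limma on log2(FPKM + 0.1) gave 0.050. The 2 scales are linked by the effective length assigned to MDM2 in each library, which was 6384 and 5897 bases in NK scramble and 5112 and 5234 bases in NK shADAR1. That is a log2 difference of -0.25, and both knockdown libraries were shorter than both controls. Over 11761 genes, 18.1% were shorter without overlap, 11.5% were longer without overlap, and 3.01% were shorter by at least as much as MDM2. MDM2 has 2 promoters. Its exons overlap the carboxypeptidase M gene and an antisense gene on the other strand, and a processed pseudogene on the same strand. Neither the promoters nor the reads of these overlapping genes were separated here.

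PPM1D, the p53-induced phosphatase also called WIP1 (chromosome 17, 60600183 to 60666280, plus strand), spanned the narrowest range of the 9 relative to its level. It measured 28.2 and 30.5 CPM in the scramble libraries, against 27.9 and 29.1 CPM after knockdown. The groups overlapped, and the log2 difference was -0.041 ± 0.20 (SE) with an interval of -0.48 to 0.40, and 0.0096 without NK scramble replicate 2.

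**Figure D3:**
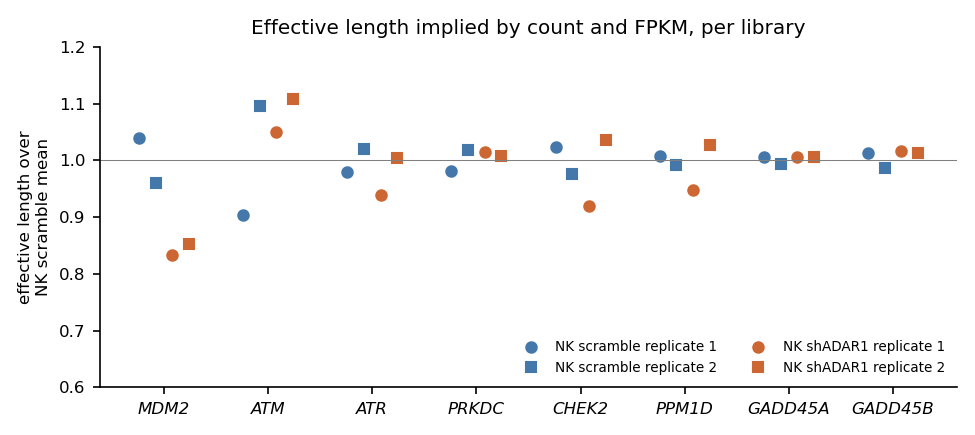
Effective length in each library divided by its mean in NK scramble, for the 8 tested members. MDM2 is below 1 in both NK shADAR1 libraries, and for the other genes the knockdown points are not both below the scramble points.

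CDKN1A, which encodes the cyclin-dependent kinase inhibitor p21 (chromosome 6, 36676460 to 36687339, plus strand), was close to absent. It had 11 and 1 counts in NK scramble and 3 and 2 counts in NK shADAR1. NK scramble replicate 1 held most of the reads. Summed, 12 counts stood against 5, a ratio of 0.433 after division by the total counts of each group, without TMM. The exact counting interval was 0.120 to 1.32, which covers counting error only. A difference was not detectable at this depth. The exons of CDKN1A overlap the noncoding RNA gene DINOL on the other strand, whose reads cannot be told apart from those of CDKN1A.

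The 2 GADD45 genes were lower in both NK shADAR1 libraries. GADD45A (chromosome 1, 67685061 to 67688338, plus strand) measured 5.61 and 3.13 CPM in the scramble libraries, against 2.29 and 2.36 CPM after knockdown. The knockdown libraries lay close together below both controls, and the controls were far apart. NK shADAR1 differed from NK scramble by -0.91 ± 0.39 log2 units (SE), with an interval of -1.78 to -0.046, an unadjusted p of 0.0408 and an adjusted p of 1.00 (edgeR). It was -0.43 without NK scramble replicate 1 and -1.28 without NK scramble replicate 2.

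GADD45B (chromosome 19, 2476122 to 2478259, plus strand) measured 40.5 and 47.1 CPM in the scramble libraries, against 25.5 and 33.4 CPM after knockdown. Every knockdown value was below every control value. The means were 43.8 ± 4.68 and 29.4 ± 5.62 CPM (SD, n = 2 each). The log2 difference was -0.57 ± 0.22 (SE), with an interval of -1.05 to -0.092, an unadjusted p of 0.0239 and an adjusted p of 1.00 (edgeR). Over all genes, 0.779% were lower at an unadjusted p under 0.05 and 12.6% were lower without overlap.

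**Figure D4:**
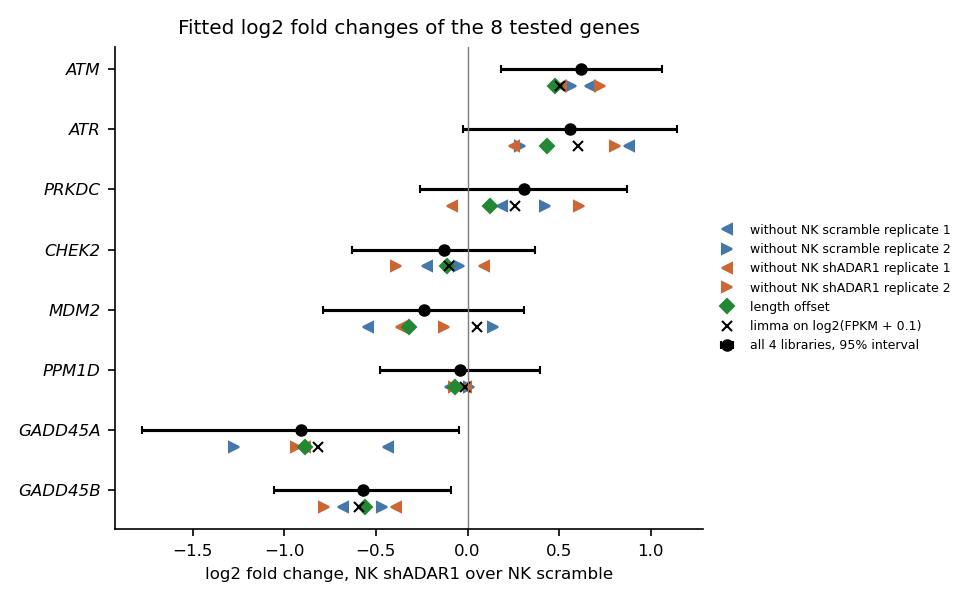
Fitted log2 fold change (NK shADAR1 over NK scramble) of the 8 tested genes with 95% intervals, and the values with each library left out, with the length offset and with limma on FPKM. The intervals of ATM, GADD45A and GADD45B leave out 0, and MDM2, CHEK2, PRKDC and PPM1D lie on both sides of 0 across settings.

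At an unadjusted p under 0.05, 1 of the 8 tested members was higher (1.7% of all tested genes were) and 2 of the 8 were lower (0.779% of all). Both directions together gave 3 members, against 2.48% of all genes. With all 4 libraries kept, limma on FPKM gave 2 members, without ATM (unadjusted p of 0.0898), and 2.41% of all genes. The replicate block gave 4 of 8 members, with ATR added, and 5.77% of all genes. The fit without a filter, which also tested CDKN1A, gave 4 of 9, with ATR added, and 2.76% of all genes. Leaving out a library leaves 1 library in a group, so that the spread comes from the other group alone and the lone library is assumed to vary like it. In those fits the log2 difference ranged from 0.51 to 0.72 for ATM and from 0.25 to 0.88 for ATR. For GADD45A it ranged from -1.28 to -0.43, for GADD45B from -0.78 to -0.39 and for PRKDC from -0.083 to 0.61.

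Of 60 p53 target genes, 48 were tested, 20 were higher and 28 lower, and the median log2 difference was -0.014 against 0.000028 over all tested genes. Without overlap between groups, 5 were higher and 13 lower, against 13.3% and 12.6% of all tested genes. At an unadjusted p under 0.05, 1 was higher and 2 were lower, together 6.25% of the tested targets against 2.48% of all tested genes. PMAIP1, the p53-induced death gene NOXA, measured 58.7 and 44.4 CPM in the scramble libraries, against 28.7 and 27.4 CPM after knockdown, a log2 difference of -0.88 ± 0.21 (SE). SESN2, a stress-induced regulator of mTORC1 that is also an ATF4 target, measured 82.2 and 49.7 CPM against 32.9 and 36.0 CPM, a log2 difference of -0.94 ± 0.25 (SE), which was -0.53 without NK scramble replicate 1. Both had knockdown values below both controls. FUCA1, a lysosomal fucosidase, measured 32.9 and 35.1 CPM against 63.0 and 39.6 CPM, a log2 difference of 0.59 ± 0.24 (SE), which was 0.22 without NK shADAR1 replicate 1.

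Of the 25 genes in the list of p53 regulation, 22 were tested, 9 were higher and 13 lower, and 0 passed an unadjusted p under 0.05. The largest by level, the ribosomal proteins RPL5 and RPL11 that bind MDM2, differed by -0.014 and 0.039 on the log2 scale.

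All 41 checkpoint and DNA damage signaling genes were tested, with 23 higher and 18 lower and a median of 0.0071. TOPBP1, an activator of ATR, was the 1 gene at an unadjusted p under 0.05, with 177 and 144 CPM in the scramble libraries, against 266 and 191 CPM after knockdown, a log2 difference of 0.51 ± 0.22 (SE) that was 0.25 without NK shADAR1 replicate 1. That is 2.44% of the list, close to the 2.48% of all tested genes. CDC25B, a phosphatase that drives mitotic entry, differed by 0.031 and H2AX, the histone variant phosphorylated at breaks, by 0.14. Of the 14 genes of DNA-PK and end joining, 9 were higher and 5 lower, with a median of 0.073 and 0 at an unadjusted p under 0.05. XRCC6, the Ku70 partner of PRKDC, differed by -0.066 and PARP1 by 0.014. Of the 12 genes of the PIKK family and the chaperones that stabilise it, 5 were higher and 7 lower, and TRRAP and MTOR differed by -0.0023 and 0.056.

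Of the 13 genes of the GADD45 family and its p38 and JNK partners, 4 were higher and 9 lower, with a median of -0.045. MAP2K6, the kinase that activates p38, was the 1 gene at an unadjusted p under 0.05, with 6.44 and 8.98 CPM in the scramble libraries, against 16.1 and 12.9 CPM after knockdown. Both knockdown libraries were above both controls, and the log2 difference was 0.91 ± 0.26 (SE). That is 7.69% of the list, against 2.48% of all tested genes. PCNA, which binds both p21 and GADD45 proteins, differed by -0.045 and MAPK14, which encodes p38 alpha, by -0.0079. Of the 18 genes of CDK inhibitors and the G1 partners of p21, 15 were tested, 4 were higher and 11 lower, and the median was -0.13. CCND2, the cyclin D2 gene, differed by -0.52 ± 0.30 (SE) and CDKN2A, which encodes p16 and p14ARF, by -0.27. Of the 12 PPM1 phosphatase genes, 10 were tested, 2 were higher and 8 lower, and the median was -0.082. PPM1G and PPM1B differed by -0.063 and 0.0036. Counting each gene of the lists once, 5 of 172 tested genes (2.91%) had an unadjusted p under 0.05, against 2.48% of all tested genes.

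**Figure D5:**
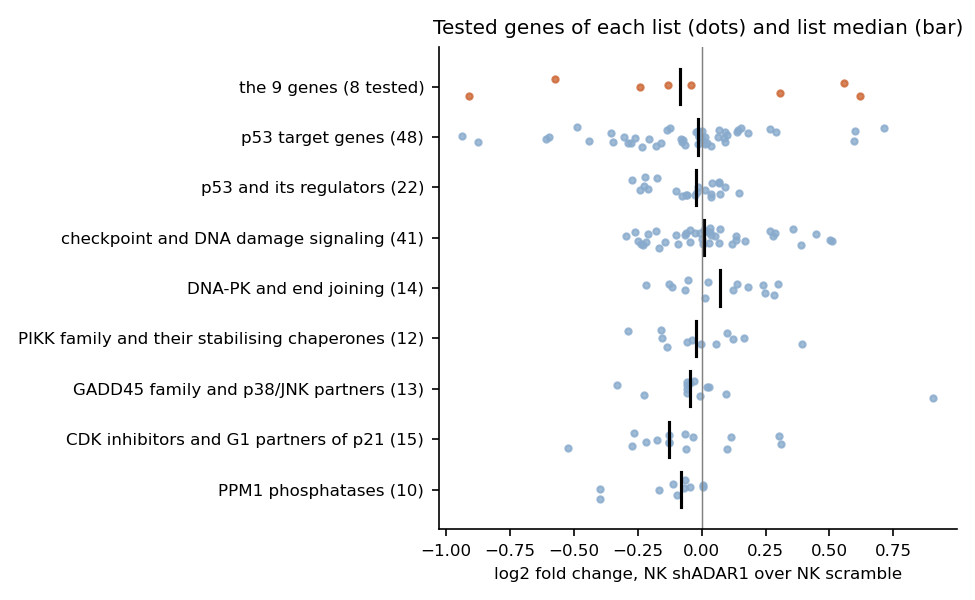
Fitted log2 fold change (NK shADAR1 over NK scramble) of every tested gene of the member list and of each pathway list, with the list median. The pathway medians lie between -0.13 and 0.073, near the median of all tested genes.

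Among the 172 tested list genes, the profile over the 4 libraries closest to GADD45A was that of SESN2, with a root mean square difference of 0.0547 in centred log2 CPM. The closest to GADD45B was PPM1H at 0.0924, to ATM was ABRAXAS1 at 0.126, to PRKDC was CLSPN at 0.0354 and to ATR was CASP6 at 0.0995. CASP6 was near the floor, with 5 to 14 counts a library. MDM2 was closest to DYRK2 at 0.141, CHEK2 to APTX at 0.0336 and PPM1D to CDKN1B at 0.0139. These are descriptions over 4 points.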

How the data were processed

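Oligo(dT)-selected RNA of 4 NK-92 libraries (2 NK scramble, 2 NK shADAR1) was sequenced (Illumina NovaSeq). For each gene the authors deposited estimated counts, of which 12.1% to 12.9% were not whole and which were not normalized, and the authors also deposited FPKM values, scaled by transcript length and depth. The submitters' processing notes name fastp 0.18.0. The aligner, counter, build and strand setting are not given in the sources used here. Gene positions are from GENCODE on GRCh38.

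Counts were rounded and analysed in R 4.3.3 with edgeR 4.0.16 (filterByExpr, minimum count 10, TMM, quasi-likelihood test, no covariates) over 11810 genes, with Benjamini-Hochberg adjustment. Called genes had a fold change of 1.5 or more in either direction and an adjusted p under 0.05. SE is the log2 fold change over the square root of F. Effective length is count over FPKM, rescaled by library. DESeq2 1.42.0, limma 3.58.1 on log2(FPKM + 0.1), other scalings and filters, a length offset, a replicate block and leaving out each library were alternatives. On data simulated for this comparison (11687 genes), the edgeR fit found 55 of the 100 genes set to a 2-fold change. It found 96 of the 100 set to 4-fold and also called 6 unchanged genes. All genes were simulated with the same dispersion, and no deviation shared by same-numbered libraries was built in. The simulation therefore leaves out differences in spread between genes. An exact permutation test of 2 against 2 cannot go under 0.333. The p-values measure only the spread between these libraries.

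A gene of the lists is not reported here. The members and lists were chosen with earlier results of these data known. Named genes are all members, list genes at an unadjusted p under 0.05 (at most 4 a list), the 2 most abundant genes of a list with fewer than 2 such genes, and the nearest profile of each member.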

Additional observations from a re-analysis of the deposited data

How the results depend on the processing

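No member passed the adjusted threshold under any alternative. Over all genes, 13 were called with the replicate block, 1 to 47 when a library was left out, and 293 at an unadjusted p; of these, members numbered 3 and list genes 5. Same-numbered libraries deviated together (r = 0.308), but 2 pairs do not establish pairing. With the replicate block ATM was 0.62, ATR 0.56, GADD45A -0.86 and GADD45B -0.58 on the log2 scale. MDM2 reversed to 0.050 with limma on FPKM. Leaving out a library gave ranges of -0.55 to 0.14 for MDM2, -0.39 to 0.088 for CHEK2, -0.083 to 0.61 for PRKDC, -0.098 to 0.0096 for PPM1D, and -0.26 to -0.043 for the median of the PPM1 phosphatases. ATM ranged from 0.51 to 0.72, ATR from 0.25 to 0.88, GADD45A from -1.28 to -0.43 and GADD45B from -0.78 to -0.39. The causes were not tested.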
